A study of Mus musculus with 12 samples.

Results

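The unfolded protein response and its ATF4 branch were followed through 40 member genes in Dkk3-null pancreatic tumor cells that were left untreated or given recombinant DKK3 protein (rDKK3). The members are the genes of a fixed list of ER chaperones and integrated stress response genes, found by name in a table of 57186 genes. The rule uses no measured value, but the list was drawn up with earlier results of these data known. All 40 were found, and 39 had enough counts to be tested among 15165 genes. Derl3, which helps to move misfolded proteins out of the ER, was too low to be tested, with 0.0665 to 0.43 CPM (counts scaled to the library total) in untreated lines and 0 to 0.541 with rDKK3.

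The data are 12 RNA-seq libraries from 3 mouse DDKC tumor lines, DDKC_9750, DDKC_9790 and DDKC_9804, with 2 untreated and 2 rDKK3-treated libraries of each line. All lines were homozygous for a Dkk3 knockout that replaces exon 2 and carried Ptf1a Cre/+, so that Cre is expressed in the pancreatic lineage. The treated and untreated groups thus shared the same genotype, and neither a Dkk3 wild-type line nor a vehicle-protein control was analysed here. The rDKK3 dose and the duration for the RNA samples were not given in the sources used here. The comparison addresses how cells that make no DKK3 respond to DKK3 supplied from outside.

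Library totals ran from 7520741 to 24541083 counts in the untreated group and from 3822987 to 11567095 in the treated group, and within each line and library set the treated library was the shallower one. Dkk3 itself had 1 count in treated DDKC_9750 and 0 in the other 5 line and condition sums, where 3 counts, the limit that a count of 0 allows, are worth 0.0856 to 0.246 CPM. The 6 epithelial tumor markers summed to 4750 to 9268 CPM in untreated and 3653 to 7630 CPM in treated lines. Among them Epcam was close to 0 in every line, with 2.03 CPM in untreated DDKC_9750. Acinar, fibroblast, immune and endothelial marker lists each summed to at most 17.4 CPM. After a shift per gene between the lower and higher library numbers was fitted, the 2 libraries of a line and condition differed by less than sampling noise (mean deviance 0.780 per degree of freedom, against 6.44 without that shift and 25.4, with it, when treated and untreated libraries were taken as repeats). They were therefore summed and counted once, which leaves n = 3 lines, each represented by 1 treated and 1 untreated value. A line and the culture grown from it cannot be told apart here.

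Cells that accumulate misfolded protein in the endoplasmic reticulum (ER) engage 3 sensors, IRE1 (gene Ern1), PERK and ATF6. IRE1 splices Xbp1 mRNA and ATF6 is cut to release a transcription factor, and both drive ER chaperone and degradation genes. PERK and related kinases phosphorylate eIF2alpha, which favours translation of ATF4, the activator of amino acid synthesis and transport genes and of Ddit3 (CHOP). The secretory pancreas relies on this response heavily. ATF4 is set largely by translation and XBP1 by splicing, neither of which a count per gene measures.

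ER stress elements (ERSE), promoter motifs known to bind ATF6 and XBP1 together with NF-Y, are shown because they occur in many ER members and in none of the amino acid members. In the 250 bases before the annotated start site, searched on both strands, the ERSE letters, CCAAT and CCACG with 9 bases between them, were present in 9 of the 19 ER folding and degradation genes. They were present in 0 of the 15 effector, synthesis and transport genes of the ATF4 arm, and in 14 of 12425 tested protein-coding genes (0.113%). The shorter ERSE-II letters, ATTGG and CCACG with 1 base between them, were present in 3 of the 19, against 8 of 12425 genes. The 2 motifs together marked 12 of the 19 ER genes, against 22 of 12425 genes (0.177%). The ERSE was first described in promoters of this gene family, so this count is a description of the list and not independent evidence. Windows were read from GRCm39 at GENCODE start sites and are printed along the gene's strand from 5′ to 3′, with capitals marking the motif. CCAAT comes first where the motif lies in the gene's direction, and CGTGG comes first where it lies in the opposite one. Of the 9 ERSE windows 8 are shown, without that of the untested Derl3.
Hspa5 (chr2:34662027-34662065, + strand): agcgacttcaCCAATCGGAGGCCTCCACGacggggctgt
Hsp90b1 (chr10:86541387-86541530, - strand): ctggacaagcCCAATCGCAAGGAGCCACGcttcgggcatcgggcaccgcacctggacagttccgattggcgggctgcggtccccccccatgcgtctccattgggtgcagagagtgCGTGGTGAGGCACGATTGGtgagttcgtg
Calr (chr8:85573694-85573732, - strand): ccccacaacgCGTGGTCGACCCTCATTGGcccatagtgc
Canx (chr11:50216617-50216655, - strand): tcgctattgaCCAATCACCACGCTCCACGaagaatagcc
Dnajc3 (chr14:119175229-119175267, + strand): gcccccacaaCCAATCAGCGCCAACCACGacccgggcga
Creld2 (chr15:88703713-88703751, + strand): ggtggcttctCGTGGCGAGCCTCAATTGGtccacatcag
Pdia6 (chr12:17316482-17316520, + strand): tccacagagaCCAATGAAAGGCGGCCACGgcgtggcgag
Syvn1 (chr19:6096552-6096590, + strand): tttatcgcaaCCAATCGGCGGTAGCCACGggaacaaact
Hsp90b1 carried 2 ERSE in opposite orientation. ERSE-II was found in Hyou1, Manf and Herpud1, in the next windows.
Hyou1 (chr9:44290648-44290772, + strand): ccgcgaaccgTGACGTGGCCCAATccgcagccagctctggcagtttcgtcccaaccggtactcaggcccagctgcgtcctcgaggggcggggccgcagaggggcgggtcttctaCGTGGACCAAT
Manf (chr9:106769228-106769258, - strand): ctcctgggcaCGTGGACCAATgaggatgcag
Herpud1 (chr8:95112935-95113025, + strand): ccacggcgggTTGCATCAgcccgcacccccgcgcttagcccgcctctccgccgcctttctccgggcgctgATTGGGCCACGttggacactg
In Hyou1 the first capital block joins the XBP1-type element TGACGTGG to an overlapping ERSE-II, and a further ERSE-II ends at the base before the start site. TGACGTGG was present in 87 of 12425 genes (0.700%). The first capital block of Herpud1 is a C/EBP-ATF response element (CARE, TGATGNAA on either strand), the motif bound by ATF4 with C/EBP partners. CARE letters occurred in 4 of the 40 members, Herpud1, Ddit3, Chac1 and Pycr1, against 250 of 12425 genes (2.01%).
Ddit3 (chr10:127126351-127126378, + strand): ttgccaaacaTTGCATCAtccccgcccc
Chac1 (chr2:119181520-119181547, + strand): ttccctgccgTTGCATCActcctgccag
Pycr1 (chr11:120534660-120534687, - strand): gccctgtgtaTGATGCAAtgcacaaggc
The remaining members had none of these CARE letters in the window, which says only that the letters are not in those 250 bases.

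Over the 3 lines the members leaned towards higher levels after treatment, unequally between lines and between groups of members. The fitted log2 fold change was above 0 for 33 of the 39 members and below 0 for 6, where 7465 of 15165 genes tested were above 0. The median was 0.28 over the members, against -0.0054 over all genes tested. It was 0.026 for the 18 tested ER folding and degradation genes, of which 13 were above 0. For the 15 genes of the ATF4 arm it was 0.41, with 14 above 0, and for the 6 sensors and transcription factors it was 0.40. None of the 39 passed edgeR's quasi-likelihood test on the line sums with the line as a block (0 at a Benjamini-Hochberg adjusted p under 0.05, background 0.00659% of genes). Of the 39, 7 reached an unadjusted p under 0.05, 6 of them higher (background 3.38%) and 1 lower (5.16%; 8.53% in all). That number was 13 without DDKC_9790 (background 4.53%) and 2 without DDKC_9804 (6.7%). DESeq2 on the same sums called 1 member, Ddit4 (background 0.679%). The 12-library fit, which counts the 2 libraries of a line as separate replicates, called 10 members (background 18.1%), 9 higher (7.95%) and 1 lower (10.1%). These were Hyou1, Atf6, Ddit3, Sel1l, Ppp1r15a, Sesn2, Asns, Shmt2 and Mthfd2, which were higher, and Ddit4, which was lower. In bulk RNA, fewer expressing cells and less RNA per cell cannot be told apart.

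**Figure D1:**
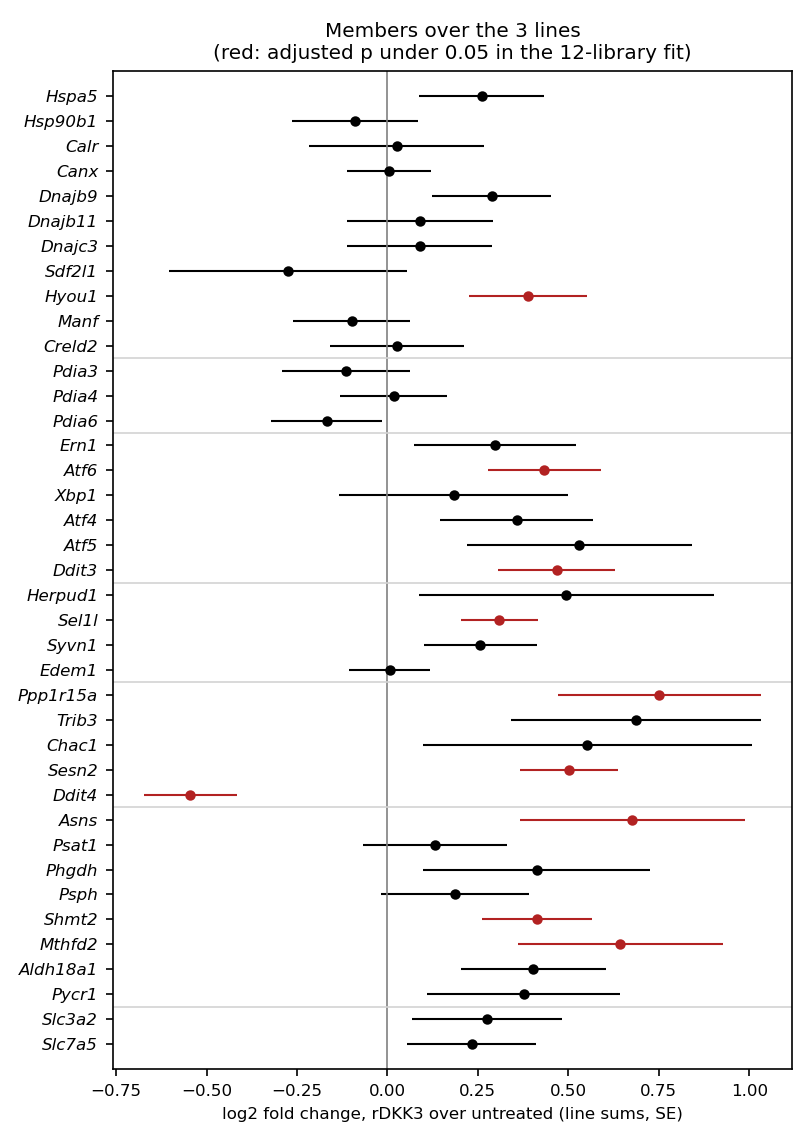
Fitted log2 fold change (rDKK3 over untreated, x axis) of the 39 tested members by role, from the sums of the 3 lines, with bars of 1 standard error. Red points are the 10 members that passed in the 12-library fit, and only Ddit4 among them lies below 0.

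The differences varied between the 3 lines. After treatment 36 of the 39 were higher in DDKC_9750 (background 48.5%), 12 in DDKC_9790 (49.4%) and 23 in DDKC_9804 (45.2%). The median log2 difference was 0.59 in DDKC_9750, -0.15 in DDKC_9790 and 0.29 in DDKC_9804, against -0.0082, -0.00059 and -0.049 over all genes. In DDKC_9750, 20 members were at least 1.5-fold higher (background 12.5%) and 0 were at least 1.5-fold lower. DDKC_9790 had no member past 1.5-fold in either direction (backgrounds 6.22% higher and 7.87% lower). DDKC_9804 had 10 at least 1.5-fold higher (11.1%) and 2 lower (16.4%). The median over the 3 lines followed this, at 0.088 without DDKC_9750, 0.46 without DDKC_9790 and 0.26 without DDKC_9804. With any 1 line left out, Ddit3, Sel1l and Ddit4 stayed within 1.5 times their fitted log2 change, and each other member chosen by the rule for full values moved further. With 1 value per line and condition, a difference in response between lines cannot be tested against the spread between cultures. edgeR's interaction term of line and treatment measures it against the spread between the 2 libraries of a pair alone. With the library set in the model that term called all 39 members (background 61.9%). Without the library set it called 37, which cannot be set against all genes, since their share in that fit is not given here. The lower and the higher library numbers gave the same sign in 115 of the 117 member and line differences. Over all genes tested they did so in 36780 of 45495. Of the 39, 9 were higher in all 3 lines (background 14.2%) and 1 was lower in all 3 (18.1%).

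**Figure D2:**
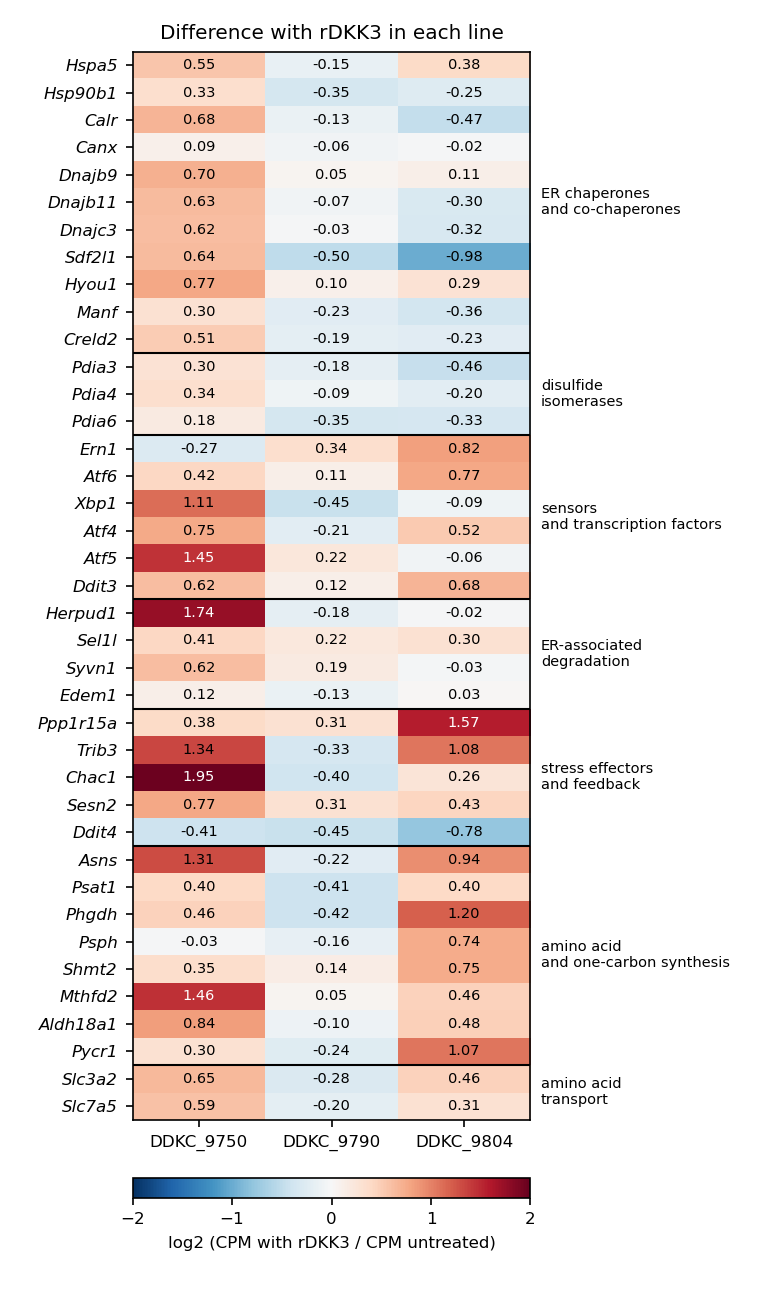
Log2 ratio of CPM with rDKK3 over untreated CPM, printed and coloured for each tested member (rows, by role) in each line (columns). DDKC_9750 is higher in 36 of 39 rows, DDKC_9790 lower in 27 of 39, and DDKC_9804 lower in most chaperone and isomerase rows but higher in most rows of the ATF4 arm.

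In DDKC_9804, 13 of the 18 tested ER folding and degradation genes were lower (background 54.0%, median log2 difference -0.22), with the 4 degradation genes at 2 higher and 2 lower. Of the 15 genes of the ATF4 arm 14 were higher there (background 45.2%, median 0.48), and the difference between the ER genes and the arm was not tested. In DDKC_9750 both were mostly higher, 18 of 18 (median 0.53) and 13 of 15 (median 0.59), against 48.5% of genes. In DDKC_9790 both were mostly lower, 14 of 18 (median -0.13) and 11 of 15 (median -0.22), against 49.6% of genes. The 11 tested ER genes with ERSE or ERSE-II letters had medians of 0.55, -0.15 and -0.23 in DDKC_9750, DDKC_9790 and DDKC_9804. The 7 ER genes without them had 0.41, -0.09 and -0.20. The difference between the ER genes with and without the letters was not tested.

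ER chaperones bind and fold proteins entering the ER. All 11 were higher in treated DDKC_9750 (log2 differences 0.09 to 0.77), 9 of 11 were lower in DDKC_9790 (-0.50 to 0.10) and 8 of 11 were lower in DDKC_9804 (-0.98 to 0.38). Hspa5 (chr2:34661982-34667559, + strand) encodes BiP, the main ER HSP70 and the usual gauge of ER stress. Its level went from 723 CPM untreated to 1061 CPM with rDKK3 in DDKC_9750, from 867 to 781 CPM in DDKC_9790 and from 1024 to 1329 CPM in DDKC_9804. The groups overlapped, since untreated DDKC_9804 lay above treated DDKC_9790, and the fitted log2 fold change was 0.26 ± 0.17 (SE, n = 3 lines, edgeR adjusted p = 0.690). Hsp90b1 (chr10:86526073-86541373, - strand) encodes GRP94, the ER HSP90, and had the highest level per kilobase of exon among the chaperones, 228 ± 45.1 CPM per kb (SD, n = 3 untreated lines). It stood at 782 and 986 CPM in DDKC_9750, 1168 and 918 CPM in DDKC_9790, and 1039 and 873 CPM in DDKC_9804, untreated and treated in turn. It was thus higher in 1 line and lower in 2, with a fitted change of -0.09 ± 0.17 (SE, adjusted p = 0.890).

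Hyou1 (chr9:44290787-44303666, + strand) encodes GRP170, a nucleotide exchange factor for BiP. It was higher in all 3 lines, at 179 against 304 CPM in DDKC_9750, 253 against 271 CPM in DDKC_9790 and 278 against 341 CPM in DDKC_9804. Its fitted change of 0.39 ± 0.16 (SE) missed the line-sum test (adjusted p = 0.596) and passed the 12-library test (edgeR adjusted p = 0.0186). Dnajb9 (chr12:44252342-44257109, - strand), an ER J-protein that feeds clients to BiP, was 52.6 and 85.7 CPM in DDKC_9750, 55.6 and 57.8 CPM in DDKC_9790 and 78.1 and 84.3 CPM in DDKC_9804. The fitted log2 change was 0.29 ± 0.16 (SE, adjusted p = 0.652), with the 95% counting interval of DDKC_9790 spanning 0 (-0.06 to 0.17). Calr and Sdf2l1, named here after their values were seen, showed the opposite line directions most widely among the chaperones. Calreticulin, the lectin chaperone encoded by Calr, was within 528 to 576 CPM in the 3 untreated lines and lay at 925, 483 and 411 CPM with rDKK3 in DDKC_9750, DDKC_9790 and DDKC_9804. Sdf2l1, a partner of ER J-proteins, was within 22.1 to 22.8 CPM untreated and at 34.9, 16.1 and 11.2 CPM with rDKK3. Between the highest and lowest lines the 2 genes differed 1.09-fold and 1.03-fold untreated and 2.25-fold and 3.13-fold with rDKK3. Manf, a secreted ER protein that was lower in 2 of 3 lines, overlaps Rbm15b on the same strand over 6511 bases of its span, so its counts are less certain.

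The disulfide isomerases form and rearrange disulfide bonds in the ER. All 3 were higher in DDKC_9750 (log2 differences 0.18 to 0.34) and lower in DDKC_9790 (-0.35 to -0.09) and DDKC_9804 (-0.46 to -0.20). Pdia3 (chr2:121244256-121269168, + strand), also called ERp57, is the partner of calnexin and calreticulin and had the highest untreated level per kilobase of the 3, 181 ± 22.1 CPM per kb (SD, n = 3). It went from 794 to 975 CPM in DDKC_9750, from 668 to 590 CPM in DDKC_9790 and from 853 to 621 CPM in DDKC_9804. Its fitted log2 change was -0.11 ± 0.18 (SE, adjusted p = 0.862). Pdia6 (chr12:17316546-17334771, + strand) went from 332 to 377 CPM, from 398 to 312 CPM and from 430 to 341 CPM in DDKC_9750, DDKC_9790 and DDKC_9804, for a fitted change of -0.17 ± 0.15 (SE, adjusted p = 0.760). Neither isomerase passed either test, and in both the treated and untreated ranges overlapped.

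Degradation genes return misfolded proteins to the cytosol. Herpud1 (chr8:95113066-95122005, + strand) organises the retrotranslocation complex and carries both an ERSE-II and CARE letters in the window printed above. It was 117 CPM untreated and 390 CPM with rDKK3 in DDKC_9750, which is 3.34-fold higher. DDKC_9790 had 217 and 191 CPM and DDKC_9804 had 92.6 and 91.1 CPM, the last pair differing by less than counting error (95% interval of the log2 difference -0.12 to 0.07). The fitted change of 0.49 ± 0.41 (SE, adjusted p = 0.739) rested on DDKC_9750, and was -0.10 without it. Sel1l (chr12:91772817-91815931, - strand), the scaffold of the HRD1 ubiquitin ligase, behaved evenly. It went from 119 to 159 CPM in DDKC_9750, from 116 to 135 CPM in DDKC_9790 and from 131 to 161 CPM in DDKC_9804. Every treated value lay above every untreated one, and Sel1l was the single member for which this held (background 2.02% of genes higher and 2.1% lower without overlap). Its fitted change was 0.31 ± 0.11 (SE), with an adjusted p of 0.578 in the line sums and 0.00142 in the 12-library fit. Syvn1, the HRD1 ligase itself, and Edem1, which trims mannose from misfolded glycoproteins, had log2 differences of -0.13 to 0.62 over the lines.

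Sensors and transcription factors set the response. All 6 members of this role had a fitted change above 0, from 0.18 to 0.53 on the log2 scale, as did 7465 of 15165 genes tested. Of the 6, Atf6 and Ddit3 passed the 12-library test, both higher (background 7.95% higher, 18.1% in all). The gene of the sensor PERK, Eif2ak3, is not a member and was named after its values were seen. Its fitted change was 0.0085 ± 0.17 (SE), with log2 differences of 0.45, -0.17 and -0.26 in DDKC_9750, DDKC_9790 and DDKC_9804. Xbp1 (chr11:5470659-5475893, + strand) makes the factor activated by IRE1 splicing, and counts per gene hold its spliced and unspliced mRNA together. Its level went from 222 to 480 CPM in DDKC_9750, from 253 to 185 CPM in DDKC_9790 and from 203 to 191 CPM in DDKC_9804. The first is 2.16-fold higher and the other two are lower, and the fitted change of 0.18 ± 0.32 (SE, adjusted p = 0.877) was -0.26 without DDKC_9750. Ern1, encoding the sensor IRE1, was lower in the line where Xbp1 was higher, with log2 differences of -0.27, 0.34 and 0.82 in DDKC_9750, DDKC_9790 and DDKC_9804. Atf6, the membrane-bound precursor, was higher in all 3, by 0.42, 0.11 and 0.77 on the log2 scale (12-library adjusted p = 0.00984 in edgeR).

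Atf4 (chr15:80139385-80141742, + strand) was at 216 CPM in untreated DDKC_9750, 644 CPM in untreated DDKC_9790 and 431 CPM in untreated DDKC_9804. With rDKK3 it was at 364, 556 and 620 CPM. It was higher in 2 lines and lower in 1, and its fitted log2 change was 0.36 ± 0.21 (SE, n = 3 lines, edgeR adjusted p = 0.662). It also had the highest untreated level per kilobase of this role, 190 ± 94.4 CPM per kb (SD, n = 3). Atf5 (chr7:44461680-44466082, - strand), a relative of ATF4 under similar translational control, was 113 and 308 CPM in DDKC_9750, 150 and 175 CPM in DDKC_9790 and 246 and 235 CPM in DDKC_9804. Its change was 0.53 ± 0.31 (SE, adjusted p = 0.659), and 0.088 without DDKC_9750. Ddit3 (chr10:127126643-127132157, + strand) encodes CHOP, the pro-apoptotic factor downstream of ATF4. It went from 8.64 to 13.3 CPM in DDKC_9750, from 44.4 to 48.2 CPM in DDKC_9790 and from 35.5 to 56.8 CPM in DDKC_9804. It was higher in all 3 lines, though the counting interval in DDKC_9790 included 0 (-0.01 to 0.25). The fitted change of 0.47 ± 0.16 (SE) had an adjusted p of 0.578 in the line sums and 0.00785 in the 12-library fit. The table holds a second Ddit3 record that overlaps the first on the same strand and is at 0 in every library, and the counting mode gives alignments over both to neither, so Ddit3 levels may be understated.

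**Figure D3:**
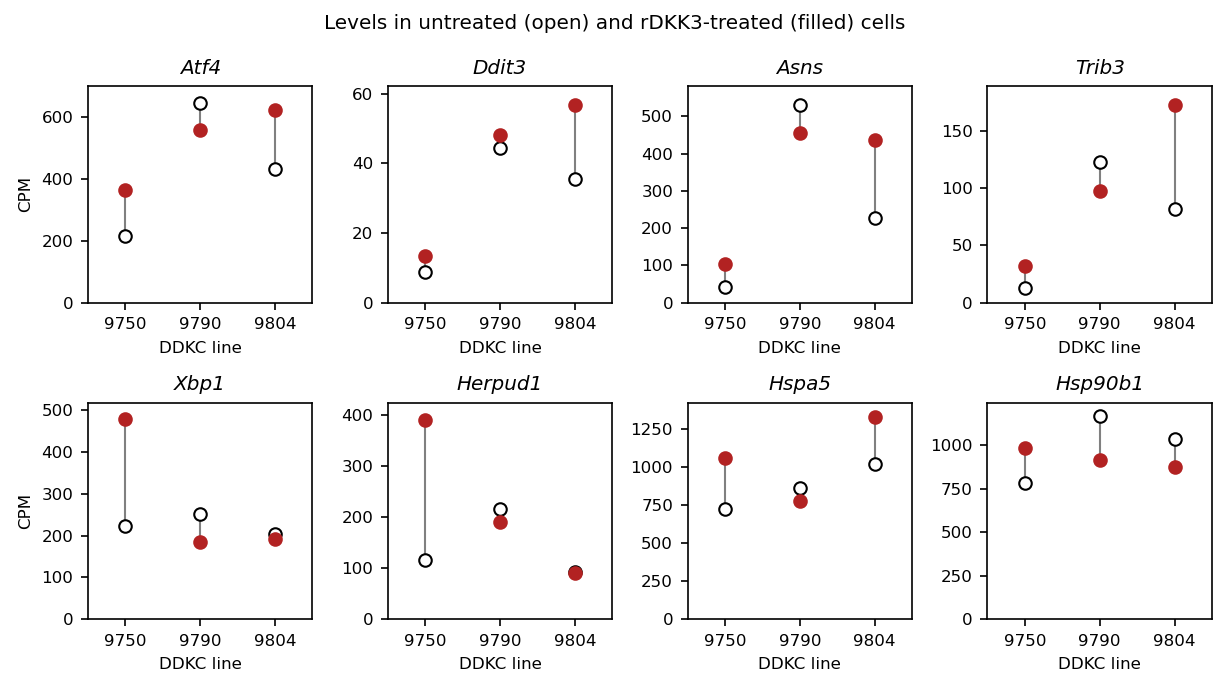
CPM (y axis, from 0) of 8 members in each line (x axis), untreated as open circles and with rDKK3 as filled circles, each the sum of 2 libraries. In DDKC_9750 the filled circle is the higher one in all 8 panels, and in DDKC_9790 it is the lower one in 7, with Ddit3 as the exception.

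Stress effectors and feedback genes held the widest fitted changes. Ppp1r15a (chr7:45172340-45175692, - strand), GADD34, recruits the phosphatase that reverses eIF2alpha phosphorylation. It went from 27.4 to 35.6 CPM in DDKC_9750, from 47.2 to 58.4 CPM in DDKC_9790 and from 35.1 to 104 CPM in DDKC_9804, the last 2.97-fold higher. Its fitted change of 0.75 ± 0.28 (SE) had an adjusted p of 0.582 in the line sums and 0.0256 in the 12-library fit. Trib3 (chr2:152179342-152185952, - strand), a pseudokinase that dampens ATF4 and CHOP activity, was 12.7 and 32.1 CPM in DDKC_9750, 123 and 97.5 CPM in DDKC_9790 and 81.6 and 172 CPM in DDKC_9804. It was 2.54-fold and 2.11-fold higher in 2 lines and lower in the other one, and its change of 0.69 ± 0.35 (SE, adjusted p = 0.628) passed neither edgeR test. Chac1, which degrades glutathione, was 7.94 and 30.8 CPM in DDKC_9750, a 3.87-fold difference that was the widest of any tested member in any line. In DDKC_9790 it was 76.8 and 58.2 CPM, and in DDKC_9804 it was 63.3 and 75.7 CPM. Sesn2, an inhibitor of mTORC1, was higher in every line by 0.77, 0.31 and 0.43 on the log2 scale (12-library adjusted p = 0.00131 in edgeR). Chac1, Sesn2, Atf6, Ern1 and Shmt2 were named after their values were seen.

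Ddit4 (chr10:59785491-59787656, - strand), REDD1, another inhibitor of mTORC1 induced by several stresses, went the other way. It was 272 and 205 CPM in DDKC_9750, 574 and 421 CPM in DDKC_9790 and 221 and 129 CPM in DDKC_9804, untreated and treated in turn. It was lower in all 3 lines although the groups overlapped, because untreated levels differed 2.60-fold between lines. The fitted change was -0.54 ± 0.13 (SE, unadjusted p = 0.00751 and adjusted p = 0.578 in edgeR's line sums). DESeq2 gave an adjusted p of 0.04998 on the same sums, and edgeR gave 0.000449 on the 12 libraries. Ddit4 had the highest untreated level per kilobase of the effectors, 131 ± 70.2 CPM per kb (SD, n = 3).

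Amino acid and one-carbon synthesis genes are classical ATF4 targets. All 8 were higher in DDKC_9804 (log2 differences 0.40 to 1.20, median 0.74), 7 of 8 in DDKC_9750 and 2 of 8 in DDKC_9790. Asns (chr6:7675169-7693254, - strand) encodes asparagine synthetase. It went from 41.9 to 104 CPM in DDKC_9750, from 530 to 454 CPM in DDKC_9790 and from 228 to 437 CPM in DDKC_9804. Its change of 0.68 ± 0.31 (SE) had an adjusted p of 0.614 in the line sums and 0.0471 in the 12-library fit. With the library set added to that fit the adjusted p was 0.0537, no longer under the threshold, at a log2 change of 0.66 in both. Phgdh (chr3:98220486-98247306, - strand) catalyses the first step of serine synthesis and had the highest untreated level per kilobase of this role, 161 ± 94.9 CPM per kb (SD, n = 3). It was 118 and 162 CPM in DDKC_9750, 504 and 377 CPM in DDKC_9790 and 392 and 898 CPM in DDKC_9804. Its change of 0.41 ± 0.31 (SE, adjusted p = 0.720) combined a 2.29-fold higher level in DDKC_9804 with a lower one in DDKC_9790, and was 0.016 without DDKC_9804 and 0.84 without DDKC_9790. Mthfd2 (chr6:83282673-83302890, - strand), the mitochondrial folate enzyme, was 25.4 and 70.1 CPM in DDKC_9750, 237 and 245 CPM in DDKC_9790 and 169 and 232 CPM in DDKC_9804. It was 2.76-fold higher in DDKC_9750 and within counting error in DDKC_9790 (95% interval -0.01 to 0.11), and its change of 0.64 ± 0.28 (SE) had adjusted p-values of 0.611 and 0.0361 in the line sums and the 12 libraries. Shmt2, which feeds it with one-carbon units from serine, was higher by 0.35, 0.14 and 0.75 on the log2 scale (12-library adjusted p = 0.0106 in edgeR).

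Amino acid transport was represented by both chains of one exchanger. Slc3a2 (chr19:8684246-8700733, - strand), the heavy chain CD98, was 114 and 179 CPM in DDKC_9750, 482 and 396 CPM in DDKC_9790 and 276 and 379 CPM in DDKC_9804. Slc7a5 (chr8:122607889-122634433, - strand), the light chain LAT1, was 63.8 and 96.3 CPM, 239 and 208 CPM and 305 and 379 CPM in the same order. Both were higher in DDKC_9750 and DDKC_9804 and lower in DDKC_9790, and the fitted changes were 0.28 ± 0.21 (SE, adjusted p = 0.718) and 0.23 ± 0.18 (SE, adjusted p = 0.721).

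Between untreated lines, levels lay further apart for the members of the ATF4 arm than for the ER members. Of the 15 genes of the arm, 14 were lowest in DDKC_9750 (background 32.1% of genes), and 13 were highest in DDKC_9790 (35.9%). The median ratio of the highest to the lowest untreated line was 4.22 for the ATF4 arm, 1.30 for the ER folding and degradation genes and 1.69 for all genes tested. A gap of at least 2-fold was present in 14 of 15 and in 2 of 18 members, against 37.7% of genes. Asns spanned 12.6-fold, Trib3 9.71-fold, Chac1 9.67-fold and Mthfd2 9.31-fold between untreated DDKC_9790 and DDKC_9750. Atf4 itself spanned 2.98-fold and Ddit3 5.14-fold, with Xbp1 at 1.24-fold. With rDKK3 the median ratio was 3.22 in the ATF4 arm, and the lines were closer together for 10 of its 15 genes (background 37.5%). The untreated value enters both this spread and the response, so they are not separate measurements.

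**Figure D4:**
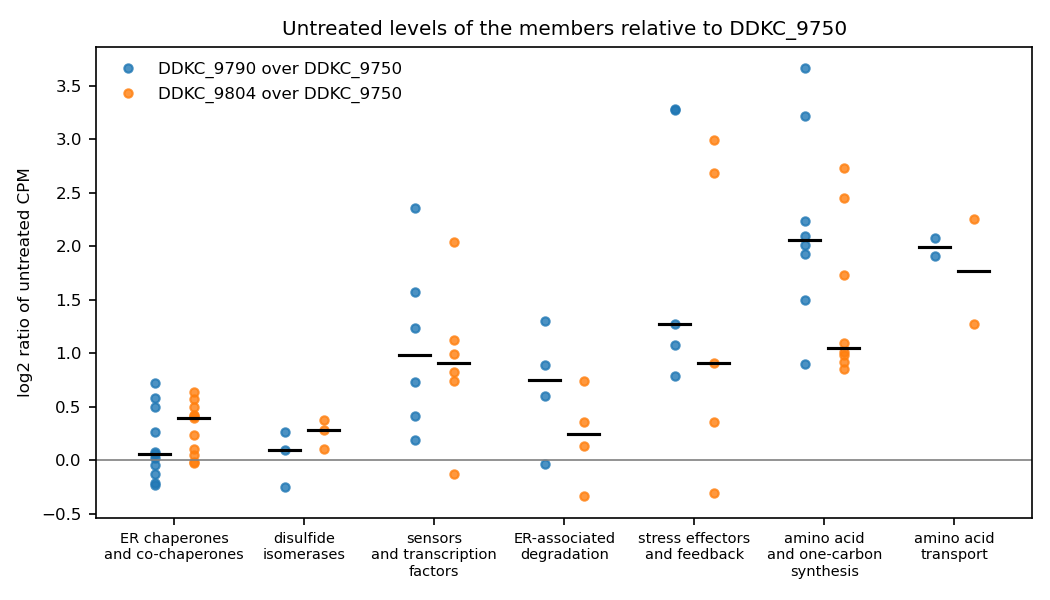
Log2 ratio of the untreated CPM of each tested member in DDKC_9790 (blue) and DDKC_9804 (orange) over DDKC_9750 (y axis), by role (x axis), with a black bar at the median. Chaperones and isomerases all lie within 1 log2 unit of 0, and all synthesis and transport genes lie above it in both lines.

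A further 49 genes of the pathway were followed beside the members, and 48 could be tested. None passed the line-sum test in edgeR (background 0.00659%), 2 had an unadjusted p under 0.05 (8.53%), and DESeq2 on the sums called 0 (0.679%). In the 12 libraries edgeR called 6 of the 48 (background 18.1%), of which 4 were higher (7.95%) and 2 lower (10.1%), and DESeq2 called 10 (background 18.9%). Their median log2 change was 0.02. Among 16 tested ATF4 partners and other targets, 14 had a fitted change above 0 (median 0.30), against 7465 of 15165 genes tested. By line, 14 of the 16 were higher in DDKC_9750 (background 48.5%) and 13 in DDKC_9804 (45.2%). In DDKC_9790, 13 of the 16 were lower (background 49.6%). Of the 16, 13 were lowest in untreated DDKC_9750 (background 32.1%). The 10 other ER folding and oxidation genes had a median of -0.09, and 4 of them differed at least 2-fold between untreated lines (background 37.7%). The median was -0.21 for the 6 cytosolic heat shock genes and -0.04 for the 6 eIF2alpha kinases and subunits. It was 0.03 for the 2 ATF6 proteases and 0.04 for the 8 other ER-associated degradation genes. Gdf15, a secreted stress cytokine, was 24.8 and 42.1 CPM in DDKC_9750, 208 and 239 CPM in DDKC_9790 and 41.6 and 216 CPM in DDKC_9804. Its change of 1.10 ± 0.43 (SE) had an adjusted p of 0.585 in the line sums and 0.0280 in the 12 libraries. Nupr1, a stress-induced chromatin protein of the pancreas, was higher in all 3 lines by 0.83, 0.10 and 0.22 on the log2 scale (12-library adjusted p = 0.0336 in edgeR). Ppib, an ER prolyl isomerase, was lower in all 3, with log2 differences of -0.11, -0.41 and -0.58 (12-library adjusted p = 0.00475 in edgeR).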

How the data were processed

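RNA-seq libraries were made with a directional kit and sequenced by the authors, who aligned reads to GRCm39 with STAR 2.7.9a and GENCODE M32 and counted them by strand with GenomicAlignments in Union mode. The deposited values are raw counts per gene. The submitters' processing notes also name Picard 2.19.2, R 4.2.2 and DESeq2 1.38.0. The 92 spike-in rows held 0 counts (0% of every library) and were left out.

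Counts of the 2 libraries of each line and condition were summed, because the labels do not say that they are separate cultures and, once a shift per gene between the lower and higher library numbers was fitted, they agreed within sampling noise. The 12-library fits of treatment hold no interaction of line and treatment. Their residual spread thus mixes differences in response between lines with the spread between the 2 libraries of a pair. The latter may be technical, and each line enters more than once per condition. edgeR 4.0.16 (R 4.3.3) with TMM scaling, its default low-count filter and the line as a block tested rDKK3 against untreated, with Benjamini-Hochberg adjustment over 15165 genes at 0.05. The pairing comes from the cell line in the labels. Deviations of log2 CPM from the group means correlated between the untreated and treated sums of a line, at 0.820, 0.879 and 0.801 for DDKC_9750, DDKC_9790 and DDKC_9804. CPM are scaled to the TMM-adjusted total over the tested genes, and lengths and start sites come from GENCODE M39. Intervals are 95% and, like floors, cover counting error only. Alternatives were no block, RLE, DESeq2 1.42.0, other filters, thinning to equal depth, each library set and each line left out. The rule for members uses gene names alone, but the member list, the other lists and the tests were drawn up with earlier results of these data known. Named in full were Hspa5, Xbp1, Atf4, Ddit3, Asns, members past the line-sum test and, per role, the member with the highest level per kilobase and the 2 with the largest absolute fold change. Of the other pathway genes, the rule named the 3 with the largest absolute change in the same direction in all lines. One item of the lines' genotype is not reported here.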

Additional observations from a re-analysis of the deposited data

Results flagged for a closer look

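The log2 differences of the 3 lines lay further apart than the spread between the 2 libraries of a pair for 39 of 39 tested members, by edgeR's interaction term of line and treatment (background 61.9% of genes). The fit held the library set. Without the library set 37 were called, a fit for which the share of all genes is not given here. That spread was within sampling noise, so the term does not measure the difference against the spread between cultures, which could not be tested with 1 value per line and condition. The distance between the highest and the lowest of the 3 log2 differences ran from 0.16 for Canx to 2.35 for Chac1 over the 39 members. Of the members described in full, the highest values were 1.92 for Herpud1, 1.68 for Trib3, 1.61 for Phgdh, 1.56 for Xbp1, 1.53 for Asns, 1.52 for Atf5, 1.41 for Mthfd2 and 1.26 for Ppp1r15a. Next came 0.96 for Atf4, 0.93 for Slc3a2, 0.80 for Slc7a5, 0.75 for Pdia3, 0.70 for Hspa5 and 0.68 for Hsp90b1. The lowest values among them were 0.67 for Hyou1, 0.65 for Dnajb9, 0.56 for Ddit3, 0.54 for Pdia6, 0.36 for Ddit4 and 0.20 for Sel1l.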

How the results depend on the processing

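The number of members called in the line sums, 0, became 10 with the 12 libraries and the line, 9 when the library set was added (Asns dropped out) and 1 with DESeq2 on the sums. It was 0 under the other settings, including each line left out. Members at an unadjusted p under 0.05 numbered 7 (background 8.53%), and became 17 in both of those 12-library fits (32.9% without and 35.1% with the library set), 11 with DESeq2 on the sums (7.04%), 11 with no low count filter (6.57%) and 0 in the sums with no replicate block (0.62%). They were 3 in the 12 libraries with no replicate block (7.59%), a setting chosen after seeing the data, and ranged from 2 without DDKC_9804 (6.7%) to 13 without DDKC_9790 (4.53%). Over all genes, 1 was called in the line sums, 2744 and 3124 in the 12 libraries without and with the library set, 103 with DESeq2, 90 with no low count filter and 6 in the lower library numbers. The count was 0 in the sums and 0 in the 12 libraries when the block was left out, 0 at 10 counts or more in every library, 0 after thinning and 0 to 2 with a line left out. The 10 members called in the 12 libraries fell to 0 with no replicate block, and DESeq2 called 15 (background 18.9%). The interaction of line and treatment called 39 members with the library set in the model (background 61.9%). It called 37 without the library set, with no background given for that fit. Xbp1 turned to -0.26 without DDKC_9750 (range with a line left out -0.26 to 0.52) and Herpud1 to -0.10 (-0.10 to 0.87). Hsp90b1 turned to 0.051 without DDKC_9790 (-0.29 to 0.051), and Pdia3 to 0.058 without DDKC_9804 (-0.31 to 0.058). The median over members kept its sign under every alternative, from 0.088 to 0.46. Under total-count scaling 36, 13 and 26 members were higher in DDKC_9750, DDKC_9790 and DDKC_9804, with medians of 0.59, -0.09 and 0.33. Treated DDKC_9750 was the shallowest sum.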
